A study of Mus musculus with 14 samples.

Results

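Chromatin accessibility in Vav-Cre Ezh2 knockout progenitors (Vav KO) was set against that in Tie2-line wild-type progenitors (Tie2 WT), as given in the authors' deposited lists of differing regions. All regions of the pair of lists for this comparison were taken, 1943 of the 9954 regions that the lists of 3 comparisons hold, each defined by chromosome, start and end. The cells were erythro-myeloid progenitors sorted from yolk sacs of C57BL/6 mouse embryos at E10.5, with 500 cells in each ATAC-seq library. The Vav KO group is 3 samples of genotype Ezh2fl/fl; Vav-CreTg/+, and the Tie2 WT group is 3 samples of genotype Ezh2fl/fl; Tie2-Cre+/+, labelled wild type. Both groups thus carry floxed Ezh2, and the control comes from the other Cre line, so that line and genotype cannot be told apart. The 3 wild-type samples of the Vav line are in none of the lists, and 5 Tie2-Cre knockout samples (Tie2 KO) enter only the comparisons given alongside. How many animals were pooled for a library, and the sex of the embryos, are not in the labels.

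In ATAC-seq the transposase Tn5 inserts adapters where DNA is not wrapped tightly, so a region with more insertions is more accessible. Ezh2 is the main methyltransferase of Polycomb repressive complex 2 (PRC2), which places the repressive mark H3K27me3 on the promoters of many developmental genes. The Vav-Cre transgene carries regulatory sequence of Vav1 and is active in blood cells, whereas Tie2-Cre, driven by sequence of Tek, is active in endothelium and in blood cells derived from it. Erythro-myeloid progenitors arise from yolk sac endothelium and give rise to red cells, megakaryocytes, mast cells, granulocytes and macrophages.

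Each listed region comes with the authors' own log2 fold change and adjusted p, and no sample has a value. The spread between replicates and the depth of each library are therefore unknown, and each statement on a single region rests on the adjusted p of the authors' deposited table. Only regions that cover a gene start or end within 5 kb upstream of one are listed, so distant enhancers were not analysed here. In bulk libraries, fewer cells of a type and less open chromatin per cell cannot be told apart.

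The regions with the largest changes over a gene start show the range of promoters involved. Among protein-coding genes with a promoter in the RefSeq table, those with the 3 largest rises and the 3 largest falls over a gene start were taken. Noncoding genes, such as Mir3104, and genes without a promoter of the table under their region, such as Kcne1, are not printed. The reference promoter is printed from 250 bases before to 50 bases after the RefSeq gene start (GRCm38.p6). Add2, a red cell skeleton gene, and Vav1, the gene whose regulatory sequence drives Cre, were added after their values were seen. Each window lies at least in part under its region, is written 5′ to 3′ on the gene's strand, and has CpG dinucleotides in capitals.
Sftpa1 (higher, chr14:41131538-41131837, plus strand): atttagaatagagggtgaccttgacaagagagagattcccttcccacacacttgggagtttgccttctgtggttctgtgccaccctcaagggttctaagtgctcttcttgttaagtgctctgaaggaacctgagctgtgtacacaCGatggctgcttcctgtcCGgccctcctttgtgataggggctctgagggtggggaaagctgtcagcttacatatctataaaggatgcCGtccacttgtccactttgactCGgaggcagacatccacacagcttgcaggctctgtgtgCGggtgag
Cypt3 (higher, chrX:153558343-153558642, plus strand): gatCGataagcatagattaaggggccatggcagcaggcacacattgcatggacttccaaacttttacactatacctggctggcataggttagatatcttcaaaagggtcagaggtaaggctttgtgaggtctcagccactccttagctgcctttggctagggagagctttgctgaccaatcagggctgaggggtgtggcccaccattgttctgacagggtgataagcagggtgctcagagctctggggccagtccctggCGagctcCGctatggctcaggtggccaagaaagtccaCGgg
Pigr (higher, chr1:130826434-130826733, plus strand): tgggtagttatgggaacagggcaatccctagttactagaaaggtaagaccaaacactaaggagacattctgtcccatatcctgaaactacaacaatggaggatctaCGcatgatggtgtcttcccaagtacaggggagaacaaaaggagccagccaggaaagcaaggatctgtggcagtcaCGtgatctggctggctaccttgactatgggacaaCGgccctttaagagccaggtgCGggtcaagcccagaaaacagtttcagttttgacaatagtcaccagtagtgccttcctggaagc
Add2 (higher, chr6:86028431-86028730, plus strand): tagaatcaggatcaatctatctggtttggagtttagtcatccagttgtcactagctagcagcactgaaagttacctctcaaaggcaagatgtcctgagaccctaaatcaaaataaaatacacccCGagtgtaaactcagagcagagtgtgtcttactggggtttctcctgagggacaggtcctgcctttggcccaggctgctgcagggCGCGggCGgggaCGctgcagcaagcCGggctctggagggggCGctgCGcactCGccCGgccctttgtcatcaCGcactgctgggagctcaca
Vav1 (higher, chr17:57278850-57279149, plus strand): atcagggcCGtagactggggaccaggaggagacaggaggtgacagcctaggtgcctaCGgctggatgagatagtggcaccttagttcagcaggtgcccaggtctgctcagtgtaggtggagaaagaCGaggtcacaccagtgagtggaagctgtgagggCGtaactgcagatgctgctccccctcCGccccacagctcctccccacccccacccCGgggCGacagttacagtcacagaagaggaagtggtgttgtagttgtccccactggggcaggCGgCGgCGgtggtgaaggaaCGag
Fscn3 (lower, chr6:28427651-28427950, plus strand): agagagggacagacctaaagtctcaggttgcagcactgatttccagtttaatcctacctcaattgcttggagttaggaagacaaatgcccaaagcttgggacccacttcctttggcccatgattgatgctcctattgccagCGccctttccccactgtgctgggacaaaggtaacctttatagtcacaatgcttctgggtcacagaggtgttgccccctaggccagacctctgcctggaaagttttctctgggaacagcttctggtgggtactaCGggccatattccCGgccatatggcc
Hoxd10 (lower, chr2:74691641-74691940, plus strand): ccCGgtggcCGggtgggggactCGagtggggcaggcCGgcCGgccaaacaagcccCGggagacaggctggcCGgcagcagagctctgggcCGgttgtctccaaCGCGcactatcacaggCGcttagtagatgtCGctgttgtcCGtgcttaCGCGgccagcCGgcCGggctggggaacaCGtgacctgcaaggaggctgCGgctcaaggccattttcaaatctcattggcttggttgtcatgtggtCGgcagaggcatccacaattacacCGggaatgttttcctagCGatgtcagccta
Gm3604 (lower, chr13:62383125-62383424, minus strand): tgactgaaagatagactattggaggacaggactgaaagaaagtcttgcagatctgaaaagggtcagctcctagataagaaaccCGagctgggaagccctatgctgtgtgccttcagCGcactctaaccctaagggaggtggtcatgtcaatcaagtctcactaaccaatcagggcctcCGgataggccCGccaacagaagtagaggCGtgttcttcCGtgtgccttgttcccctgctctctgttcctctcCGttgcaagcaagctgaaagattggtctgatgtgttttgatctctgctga

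Sftpa1 encodes a lung surfactant protein, Pigr the receptor that carries immunoglobulins across epithelia, and Fscn3 a fascin of the testis. In the authors' deposited table the log2 fold changes were 3.68 for Sftpa1, 2.67 for Pigr and -2.01 for Fscn3. Cypt3 stood at 3.32, Hoxd10, a homeobox gene of posterior body position, at -1.77 and the gene model Gm3604 at -1.76 in the authors' deposited table. The ratio of observed to expected CpG was 0.25 for Sftpa1, 0.19 for Cypt3, 0.22 for Pigr, 0.15 for Fscn3 and 0.37 for Gm3604, so that these are CpG-poor promoters. Hoxd10 differs from them, with 22 CpG dinucleotides and a ratio of 0.75. Over all protein-coding genes with a region over their start and a promoter in the table, the ratio reached 0.6 in 71 of 142 higher promoters and in 28 of 73 lower ones (38.4%). The share was 47.7% among all promoters of protein-coding genes and 57.6% among the 1089 higher promoters of Tie2 KO against Tie2 WT.

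Accessibility was higher in Vav KO at 1313 regions and lower at 630. Among the 21900 protein-coding genes of the reference, higher regions lay near 1159 (5.29%) and lower ones near 568 (2.59%), and these shares are the background for every gene group below. The median log2 fold change in the authors' deposited table was 1.35 among higher regions, with a middle 50% from 0.96 to 1.74, and -1.295 (middle 50% from -1.59 to -0.98) among lower ones. Regions closest to the limits of the lists were those of Tymp (log2 fold change 0.59) and Kif20a (-0.58), and that of Chchd5 (adjusted p = 0.0479), in the authors' deposited table. Regions outside those limits are not in the lists.

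Large fold changes were more frequent than in the Tie2 knockout. An absolute log2 fold change of 2 or more was reached by 251 of 1943 regions (12.9%, exact 95% binomial interval 11.5% to 14.5%), against 71 of 3578 (1.98%, 1.55% to 2.50%) in Tie2 KO against Tie2 WT. This difference of 10.9 percentage points passed Fisher's exact test, two-sided (adjusted p = 5.48e-58, over 6 tests of region properties). The test counts regions, which are not replicates of a condition, and the comparisons share the Tie2 WT samples and differ in the number of knockout samples, 3 against 5. Only regions within the limits of fold change and adjusted p of the lists are counted. The part of that selection and of the sample number in the difference was not tested. The lists also differ in position, with 16.7% of regions over a gene start here and 49.2% in Tie2 KO. Among regions upstream of gene starts alone, 242 of 1618 (15.0%) reached 2 here and 49 of 1818 (2.70%) in Tie2 KO, a difference of 12.3 points (Fisher's exact test, two-sided, adjusted p = 2.71e-39).

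**Figure D1:**
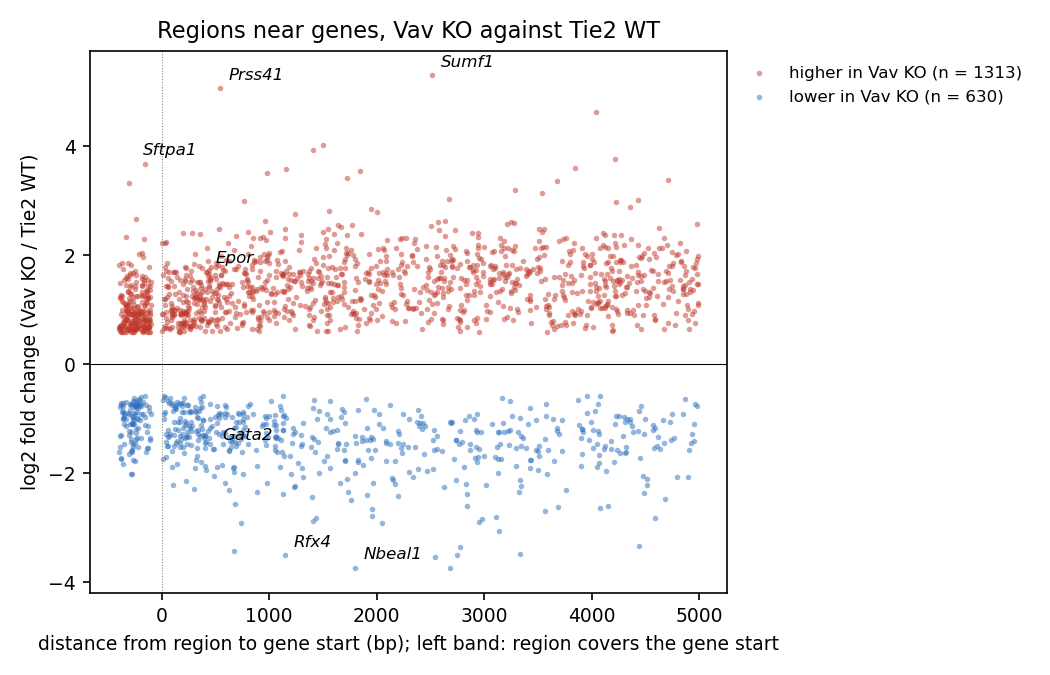
Each point is a region; the x axis gives the distance in bp from the region to the gene start, with regions that cover a gene start spread out in the band at the left, and the y axis the log2 fold change of the authors' deposited table. Points near 0 are missing because only called regions are listed, and the largest values, from 3.41 upward and from -2.91 downward, lie upstream of gene starts except that of Sftpa1.

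The size of the change went with distance from the gene start. Among higher regions the median log2 fold change in the authors' deposited table was 0.93 over a gene start, 1.12 within 500 bp upstream, 1.41 from 500 to 1000 bp, 1.51 from 1000 to 2500 bp and 1.54 from 2500 to 5000 bp. Among lower regions the same steps gave -1.01, -1.19, -1.26, -1.43 and -1.45 in the authors' deposited table. Of the 178 higher regions at 2 or more, 7 covered a gene start, and of the 73 lower ones 2 did. A gene start was covered by 16.9% of higher and 16.3% of lower regions, a difference of 0.56 percentage points that did not pass Fisher's exact test, two-sided (adjusted p = 0.836). Lower regions were more often of the smallest listed width, 999 bp, at 50.6% against 42.9% (Fisher's exact test, two-sided, adjusted p = 0.00464). The plot of fold change by distance shows that both directions spread over the whole 5 kb.

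Of the 12 largest rises all but that of Sftpa1, given above, lay upstream of a gene start. The region upstream of Sumf1, whose product activates sulfatases in the endoplasmic reticulum, stood at 5.3 on the log2 scale (adjusted p = 2.26e-07) in the authors' deposited table. It lies on chromosome 6 from 108188102 to 108189100 in mm10, 2518 bp from the gene start. Next came Prss41, a serine protease gene, at 5.06 (adjusted p = 1.64e-06), on chromosome 17 from 23844702 to 23845900, in the authors' deposited table. Neither region overlapped one of the other comparisons. Mir7661 followed at 4.63, a region upstream of both Stmn3 and Rtel1 at 4.02, Klf14, an imprinted Krüppel-like factor gene, at 3.94 and the chemokine gene Ccl6 at 3.77 in the authors' deposited table. Olfr1368, an odorant receptor gene, stood at 3.61, D630024D03Rik at 3.59, Gmpr, a purine enzyme gene, at 3.55, the region shared by Ntmt1 and 1700001O22Rik at 3.51 and Elac1 at 3.41 in the authors' deposited table.

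On the lower side, 6430584L05Rik stood at -3.74, Nbeal1 at -3.73 (adjusted p = 6.03e-08) and the phosphate transporter gene Slc34a1 at -3.53 in the authors' deposited table. Rfx4, a transcription factor gene of the brain and testis, followed at -3.5 and the kainate receptor gene Grik4 at -3.48 in the authors' deposited table. Ptprcap, whose product associates with the leukocyte phosphatase CD45, stood at -3.49 and Il16, a cytokine gene, at -3.36 in the authors' deposited table. Gm4251 at -3.42, Myl10 at -3.34, Eef1g, a subunit of translation elongation factor 1, at -3.05, Zfp568 at -2.92 and Hsbp1 at -2.91 complete the 12 lowest values of the authors' deposited table. The Grik4 region overlapped one that was higher by 3.5 in Tie2 KO than in Vav KO in the authors' deposited table.

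The smallest adjusted p-values mostly fell on other regions. With an adjusted p of 5.57e-08, the authors' deposited table puts first a region over the start of Grin1, an NMDA receptor subunit gene, with a log2 fold change of 1.44, and one upstream of Mief1, a mitochondrial dynamics gene, at 2.46. Higher regions at Rasl10a (1.28), Ccdc136 (2.46), Pdia3, a chaperone of the endoplasmic reticulum (2.43), Dlx5 (2.49) and Fam69a (2.5) were also among the 8 smallest in the authors' deposited table. Among lower regions, those of the splicing factor gene Bud31 (-1.61), the ribosome assembly gene Pes1 (-1.22), 4732491K20Rik (-1.01), Timm22, a mitochondrial import gene (-2.31), and Gm13986 (-2.41) were among the 8 smallest in the authors' deposited table. Gata2 (-1.55, adjusted p = 2.87e-07) was another in the authors' deposited table.

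The genes of the labels were looked at next. Ezh2 had no listed region in any of the 3 comparisons, so the lists give no check of its deletion, and neither did Ezh1, Eed or Suz12, which encode other core subunits of PRC2. A region of 2499 bp over the start of Vav1, on chromosome 17 from 57277502 to 57280000, was higher in Vav KO by 0.81 (adjusted p = 5.14e-07) in the authors' deposited table. It overlapped a region that was lower in Tie2 KO than in Vav KO (log2 fold change -0.90) in the authors' deposited table, and Vav1 had no region in Tie2 KO against Tie2 WT. Tek had no region in Vav KO against Tie2 WT and 1 in each of the comparisons with Tie2 KO. Whether reads from transgene copies of Vav1 sequence add to its value was not tested.

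**Figure D2:**
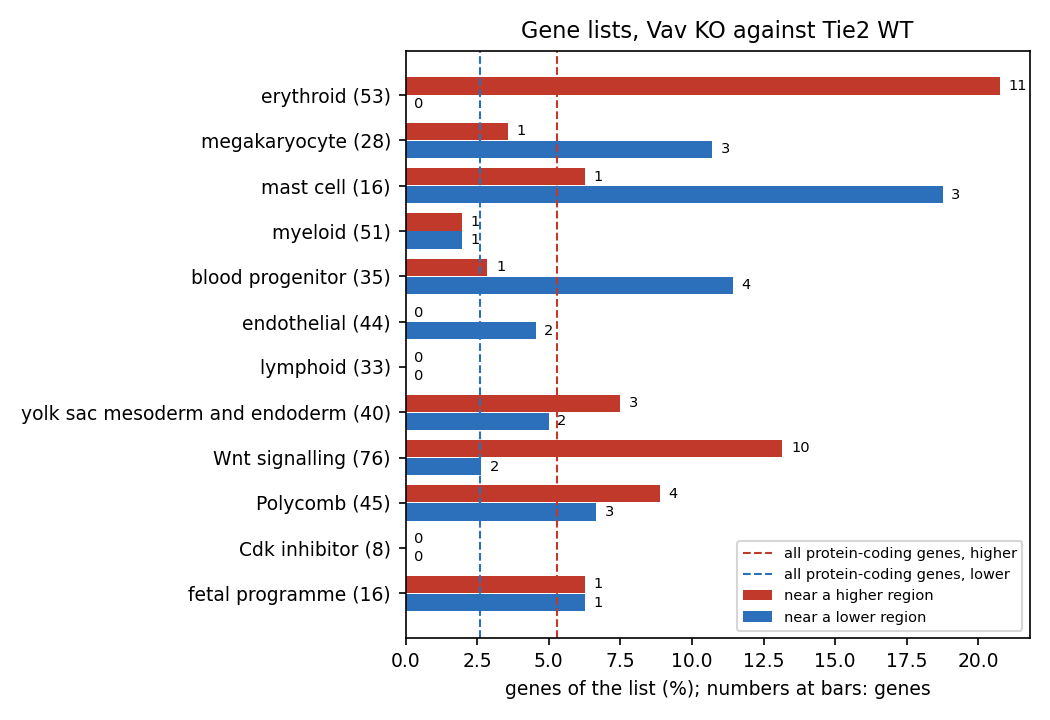
Bars give the percent of the genes of each list (number of genes in brackets) that lay near a higher or a lower region in Vav KO against Tie2 WT, numbers at the bars the genes, and dashed lines the shares of all protein-coding genes, 5.29% and 2.59%. Erythroid genes stand at 20.8% higher and 0% lower, while megakaryocyte, mast cell and blood progenitor genes have more lower than higher members.

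Red cell genes were found beside higher regions and none beside a lower one. Of 53 erythroid genes 11 (20.8%) were near a higher region, and the authors' deposited table gives log2 fold changes from 0.75 to 1.7. The members were unevenly spread over roles. Of 14 genes of the red cell membrane and its skeleton 6 were near a higher region, whereas of 7 globin genes and 10 haem synthesis genes none was near a region in either direction. Slc4a1, the band 3 anion exchanger, had a region over its start at 0.97 in the authors' deposited table. Add2, beta adducin, stood at 1.07 over the start, and Epb42, protein 4.2, at 0.75 some 224 bp upstream in the authors' deposited table. Tmod1, which caps actin filaments of the skeleton, had 2 regions, at 1.39 and 1.47, and the membrane protein gene Ermap 1, at 1.43, in the authors' deposited table.

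Epor, the erythropoietin receptor, had the largest erythroid value, at 1.7 for a region 425 bp upstream on chromosome 9 from 21964002 to 21965000 in the authors' deposited table. Trim58, a ubiquitin ligase of red cell maturation, had 2 higher regions, at 1.51 and 1.33, and Trim10, another ligase of the erythroid lineage, 1 at 0.92 in the authors' deposited table. Klf3, a Krüppel-like repressor, stood at 0.91 and Blvrb, biliverdin reductase B, at 0.95 in the authors' deposited table. Of the 9 members with a promoter in the table, 5 held the letters GATAA or TTATC, the core of the GATA motif on either strand, against 25.4% of all 32851 promoters, and 8 held CACCC or GGGTG, against 57.5%. Of those 9 only the promoter of Add2 has its region over the gene start, so for the others the letters lie beside the region or at its edge. These matches are a description and not sites.

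In Tie2 KO against Tie2 WT, which shares the Tie2 WT samples, 8 erythroid genes had a higher region nearby and 2 a lower one, against 11.5% and 2.51% of all protein-coding genes. Members with a region there included Trim58 at 1.97, Add2 at 1.21, Slc4a1 at 0.87, Epb42 at 0.71 and Blvrb at 0.65 in the authors' deposited table. In Tie2 KO against Vav KO, which shares the Vav KO samples, 3 had a higher region nearby and 9 a lower one, against 11.1% and 6.35%. The members with a region in both were Trim58 at -2.00, Ermap at -0.73, Epor at -0.58 and Trim10 at 0.71 in the authors' deposited table. Trim58, Ermap and Epor thus had a less accessible region in Tie2 KO than in Vav KO. Each of these values is the largest change of any region near the gene in that comparison, and the regions of a gene need not coincide.

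The lists of megakaryocyte and mast cell genes are short, and their shares near a lower region lay above the 2.59% of all protein-coding genes. Of 28 megakaryocyte genes 3 (10.7%) had a lower region nearby and 1 had a higher one. Treml1, a receptor stored in platelet granules, stood at -2.1, Rab27b, a granule transport GTPase, at -1.65 and Gp1bb, a subunit of the von Willebrand factor receptor, at -0.87 in the authors' deposited table. Mafg, a small Maf factor that pairs with NF-E2, was the higher member, at 1.64 in the authors' deposited table. Of 16 mast cell genes 3 (18.8%) were lower and 1 higher. Hdc, which makes histamine, stood at -1.29, the prostaglandin D synthase gene Hpgds at -0.77 and Gata2 at -1.55, whereas the tryptase gene Tpsab1 stood at 2.32, in the authors' deposited table.

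Blood progenitor genes had 4 lower members of 35 (11.4%) and 1 higher. Gata2, a factor needed for blood stem and progenitor cells, had a region 490 bp upstream, and Cd93, a surface marker of early progenitors, one 166 bp upstream at -1.45 in the authors' deposited table. Meis1, a homeobox factor of stem cells, stood at -1.06 and Cd48, a surface receptor, at -0.84 in the authors' deposited table. The higher member was Prdm16, a zinc finger regulator of blood stem cell maintenance (1.07) in the authors' deposited table. Gata2 is on 3 of the lists and is counted in each.

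Lists of other blood, vascular and yolk sac cells are short too, and their counts stand beside 5.29% higher and 2.59% lower over all protein-coding genes. Of 51 myeloid genes 1 (1.96%) was higher and 1 lower. Csf1r, the macrophage growth factor receptor, stood at 0.92 over its start and Cd14, a co-receptor for lipopolysaccharide, at -2.56 in the authors' deposited table. None of 33 lymphoid genes was near a region in either direction. Of 44 endothelial genes none was near a higher region and 2 (4.55%) were near a lower one. These were Gata2 and the apelin receptor gene Aplnr, at -1.06 in the authors' deposited table. Of 40 genes of yolk sac mesoderm and endoderm 3 (7.5%) were higher and 2 (5%) lower. Postn at 2.22, Col1a2 at 1.47 and Twist2 at 1.33 are mesenchymal, as is Pdgfra at -1.57, and Foxa2 at -1.53 is endodermal, in the authors' deposited table. Of 10 markers of erythro-myeloid progenitors 2 had a region, Cd93 and Gata2, both lower. Since the lists give differences and not levels, the labelled cell type could not be checked against its markers.

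**Figure D3:**
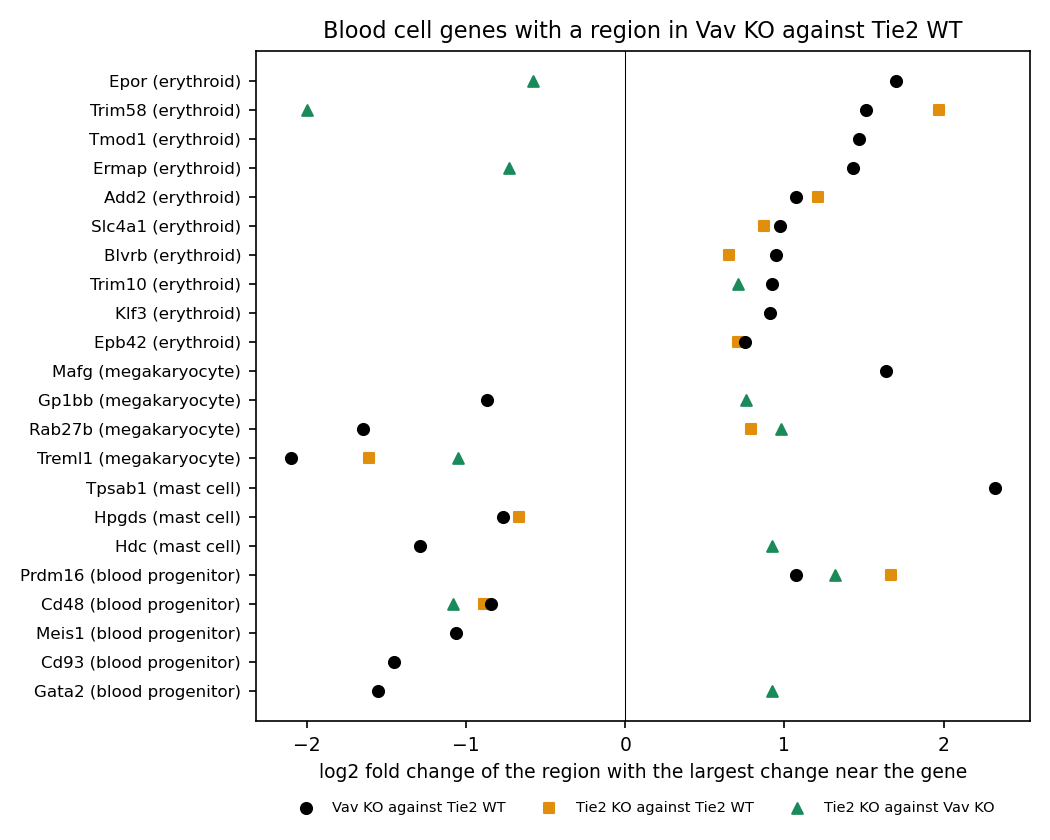
For red cell, megakaryocyte, mast cell and progenitor genes with a region in Vav KO against Tie2 WT, the x axis gives the log2 fold change of the region with the largest change near that gene in each of 3 comparisons of the authors' deposited table; a missing symbol means no listed region, and the regions of a gene need not coincide. Black circles of the erythroid genes plotted lie right of 0, from 0.75 to 1.7, and those of Mafg, Tpsab1 and Prdm16 are the other circles right of 0.

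Of 76 Wnt signalling genes 10 (13.2%) were near higher regions and 2 (2.63%) near lower ones. Wnt proteins bind Frizzled receptors and stabilise beta-catenin. Of 19 ligand genes, Wnt11 (0.85), Wnt3 (0.81) and Wnt9a (0.73) were higher in the authors' deposited table. Among receptors these were Fzd2 (1.77) and Lgr5 (0.64), and among secreted modulators Rspo3, an enhancer of the signal (2.17), and Frzb, an inhibitor (0.63), in the authors' deposited table. Bcl9, a beta-catenin cofactor (1.88), Nkd2, an intracellular antagonist (1.54), and Porcn, which acylates Wnt proteins (0.59), were higher effectors in the authors' deposited table. Sfrp2, a secreted inhibitor (-1.1), and Ctnnbip1, which binds beta-catenin (-1.21), were lower in the authors' deposited table. In Tie2 KO against Tie2 WT 37 of the 76 were near a higher region.

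Polycomb genes went in both directions, 4 higher (8.89%) and 3 lower (6.67%) of 45. All but 1 of these belong to PRC1, the complex that binds H3K27me3 or ubiquitylates histone H2A. Pcgf3 (1.86), Cbx7 (1.65) and Pcgf5 (1.0) were higher, and Bcor (-1.83), Kdm2b (-1.08) and Pcgf6 (-0.73) lower, in the authors' deposited table. The other higher member was Uty, the Y-linked relative of the H3K27 demethylase Kdm6a, at 1.29 in the authors' deposited table. None of 6 core and 8 accessory PRC2 genes and none of 8 Cdk inhibitor genes, among which Cdkn2a is a known PRC2 target, was near a region. Of 16 fetal programme genes, Igf2bp1 stood at 1.62 and Plagl1, an imprinted zinc finger gene, at -1.91 in the authors' deposited table.

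Developmental transcription factor families, classic targets of PRC2, were split by direction in several cases. Of 39 Hox genes 4 (10.3%) had a higher region nearby and 4 a lower one, Hoxd10 being in both counts. Hoxd13 stood at 2.54, Hoxa10 at 1.55 and 0.99 and Hoxb9 at 1.08, and on the lower side Hoxa6 at -1.85, Hoxd12 at -1.17 and Hoxd1 at -0.73, in the authors' deposited table. At Hoxd10 the region over the gene start was lower, at -1.77, and one 1590 bp upstream was higher, at 1.22, in the authors' deposited table. The promoter printed above is thus the lower region of the pair. In Tie2 KO against Tie2 WT 32 of the 39 Hox genes had a higher region nearby and none a lower one.

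Among forkhead genes Foxn4 (2.23), Foxc2 (1.13), Foxc1 (0.95) and Foxo6 (0.92) were higher and Foxd3 (-1.87), Foxr1 (-1.75) and Foxa2 (-1.53) lower in the authors' deposited table. Of 17 T-box genes Mga (2.32), Tbx15 (0.96) and Tbx18 (0.81) were higher and Tbx4, a hindlimb factor (-2.17), lower in the authors' deposited table. Neurogenic bHLH genes were higher at 4 of 22 (18.2%), with Olig3 at 1.27, Bhlhe22 at 1.26, Neurog2 at 0.90 and Ascl5 at 0.82 in the authors' deposited table. Pax9 (1.32) and Pax6 (-0.94), and Gata6 (1.22) and Gata2, went opposite ways in the authors' deposited table. Dlx5, a factor of skeletal and forebrain development, stood at 2.49, Six2 at 1.34, Nkx2-2 at 1.21, Nkx6-2 at 0.64 and Sox11 at 0.68 in the authors' deposited table. None of 12 LIM homeobox and 18 POU and Onecut genes was near a region, whereas in Tie2 KO against Tie2 WT 9 genes of each family were near a higher one.

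Families of the cell surface and of signalling were counted in the same way, beside 5.29% higher and 2.59% lower over all protein-coding genes. Cadherin and protocadherin genes had 7 higher members of 97 (7.22%) and no lower one. Among them were Pcdhgb7 (2.1 and 1.64), Cdh20 (1.69) and Cdh11 (1.41) in the authors' deposited table. Matrix genes numbered 9 higher (10.6%) and 2 lower (2.35%) of 85. Col5a1 stood at 2.14 and 0.73, Col4a2 at 1.76, Adamts8 at 1.69 and Fbln5 at 1.54, against Col20a1, lower at -1.68 and again at -1.58, in the authors' deposited table. Axon guidance genes numbered 8 (11.4%) and 2 (2.86%) of 70, with Efna4 at 1.71, Epha7 at 1.67 and Nrp2 at 1.23, and Ephb2 at -2.61, in the authors' deposited table. Neurotransmitter receptor genes numbered 8 (8%) and 2 (2%) of 100, with Gabrg1, a GABA receptor subunit, at 2.33 over its start in the authors' deposited table. Tnf superfamily genes numbered 6 and 2 of 33 (18.2% higher), where Tnfsf12 and Tnfsfm13 share 1 region at 2.42 and Tnfrsf1a, the main Tnf receptor, has 2, at 2.03 and 0.94, in the authors' deposited table. Chemokine and interleukin genes numbered 11 (7.80%) and 6 (4.26%) of 141. Il27 stood at 2.04, Il17f at 1.9 and 1.78, and Cxcr4, the receptor that keeps blood progenitors in their niche, at 1.8 in the authors' deposited table. The lower members of that family included Il18bp at -1.62, Cxcl5 at -1.59 and Il1rn, the interleukin 1 receptor antagonist, at -1.3 in the authors' deposited table.

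Zinc finger genes of the Zfp, Zbtb and Zscan names numbered 24 higher (5.07%) and 13 lower (2.75%) of 473, with Zfp385c at 2.27 and Zfp568 at -2.92 in the authors' deposited table. Solute carrier genes numbered 29 (7.95%) and 10 (2.74%) of 365, led by the zinc transporter gene Slc39a14 at 2.6 in the authors' deposited table. Of 1475 olfactory and vomeronasal receptor genes 2 (0.136%) were higher and 1 (0.0678%) lower. Among housekeeping families, ribosomal protein genes numbered 5 higher (5.95%) and 1 lower (1.19%) of 84. Oxidative phosphorylation genes numbered 7 (6.67%) and 3 (2.86%) of 105, and mitochondrial ribosome genes 5 (6.67%) and 1 (1.33%) of 75. Proteasome genes numbered 4 and 0 of 39 (10.3%), with Psmd12 at 1.17, Psmd11 at 0.83, Psmd6 at 0.68 and Psmb6 at 0.64 in the authors' deposited table.

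Noncoding genes made up 14.0% of genes near higher and 13.5% of those near lower regions, a difference of 0.41 percentage points that did not pass Fisher's exact test, two-sided (adjusted p = 0.836). They included 113 higher and 48 lower long noncoding RNA genes, 0.888% and 0.377% of 12731 in the reference. These shares lie below the 5.29% and 2.59% of protein-coding genes. MicroRNA genes numbered 55 higher and 36 lower, 4.48% and 2.93% of 1228, near the shares of protein-coding genes. For the 2 higher and 2 lower microRNA genes with the largest change among those whose start lay in a region, the mature RNAs are printed, with the seed, bases 2 to 8, in capitals.
miR-9-5p (Mir9-2, higher): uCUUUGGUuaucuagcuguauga
miR-9-3p (Mir9-2, higher): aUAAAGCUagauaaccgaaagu
miR-5710 (Mir5710, higher): uCUUGGGAcauaguguaaggca
miR-3104-5p (Mir3104, lower): uAGGGGGCaggagccggagcccucu
miR-3104-3p (Mir3104, lower): aCGCUCUGcuuugcucccccaga
miR-1982-5p (Mir1982, lower): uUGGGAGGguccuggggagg
miR-1982-3p (Mir1982, lower): uCUCACCCuauguucucccacag

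These 7 mature RNAs have 7 different seeds, and none is shared. Mir9-2 encodes miR-9, a microRNA of the nervous system, and its region stood at 1.54 (adjusted p = 2.26e-07) in the authors' deposited table. Mir5710 stood at 1.32, Mir3104 at -2.02 and Mir1982 at -1.59 in the authors' deposited table. In GRCm38.p6 the mature miR-9-5p lies on chromosome 13 from 83738821 to 83738843, miR-5710 on chromosome 9 from 54708317 to 54708338, miR-3104-5p on chromosome 7 from 141992180 to 141992204 and miR-1982-5p on chromosome 10 from 80828808 to 80828827, all on the plus strand. Upstream regions of microRNA genes included Mir143, a smooth muscle microRNA, at 2.24, Mir124a-3, a neuronal one, at 1.53, and Mir196b, from the Hoxa cluster, at -1.25, in the authors' deposited table. Mir483, which lies in Igf2, shared a region at -1.78 with Igf2os in the authors' deposited table. Mature sequences of 83 of the 88 microRNA genes were taken from the RefSeq table, and not all of the others were looked up.

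**Figure D4:**
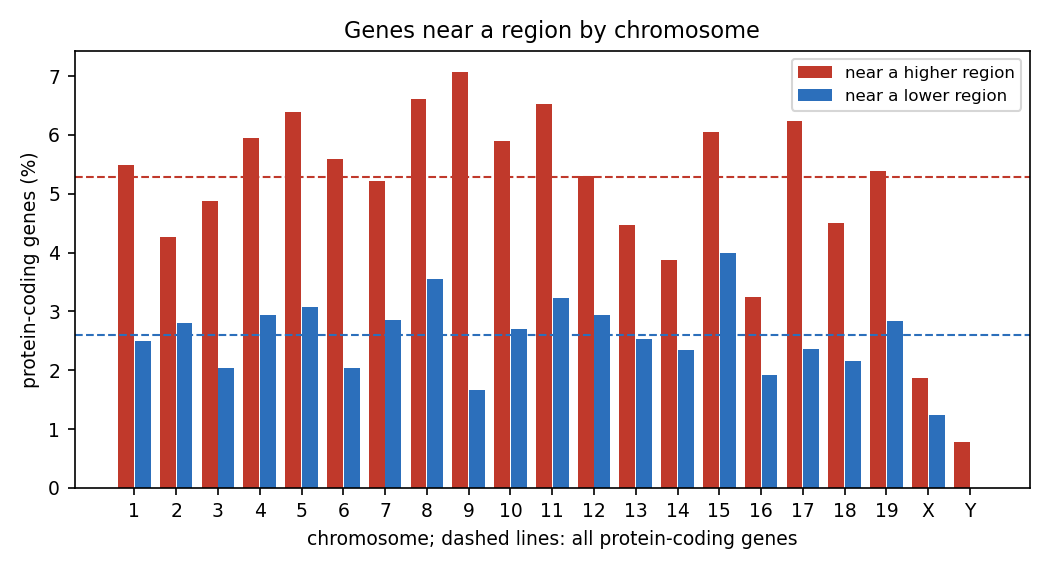
Bars give the percent of protein-coding genes of each chromosome near a higher or a lower region in Vav KO against Tie2 WT, with the shares over all chromosomes as dashed lines. Chromosome 9 has the largest share of higher genes and the smallest autosomal share of lower ones, and X and Y lie below the lines.

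By chromosome, the share of protein-coding genes near a higher region ran on autosomes from 3.24% on chromosome 16 to 7.08% on chromosome 9. Chromosome 9 held 102 higher and 23 lower regions, so that 81.6% were higher against 67.6% over all. Chromosome X held 17 of each, 1.29% of higher and 2.70% of lower regions. This difference of -1.40 percentage points did not pass Fisher's exact test after adjustment (two-sided, p = 0.0401, adjusted p = 0.0802). In settings chosen after seeing the data, it passed among regions of the smallest width, at -2.29 points (Fisher's exact test, adjusted p = 0.0337). It also passed among regions upstream of gene starts, at -1.45 points (Fisher's exact test, adjusted p = 0.0392). Fisher's exact test was not passed with an adjusted p under 0.01 (adjusted p = 0.0812) or regions paired with 1 gene (adjusted p = 0.0632). Nor was it with an absolute log2 fold change of 1 or more (Fisher's exact test, adjusted p = 0.129). The Y chromosome held 2 regions, both higher, near Eif2s3y (1.82) and Uty (1.29) in the authors' deposited table. Kdm5c, an X-linked gene that escapes inactivation, was lower at -0.67 in the authors' deposited table, and Xist had no region. The part of embryo sex in these regions was not tested.

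Of 123 pairs of neighbouring regions at most 10 kb apart, 52 were both higher, 12 both lower and 59 (48.0%) of opposite direction, beside 43.8% that the shares of higher and lower regions alone give. Of 1968 genes, 84 had 2 or more regions, and 36 of these had regions in both directions. The genes with 3 regions were Ctbp1, a corepressor (-1.58, 1.73 and 1.98), Diras1, a small GTPase (0.66, 1.4 and -1.75), and the noncoding gene Gm11762 (-1.08, 0.62 and -1.3), each with both directions in the authors' deposited table. At Ctbp1 the regions at -1.58 and 1.73 overlap, so some bases lie in regions of both directions. The same holds for Setd6 (-0.68 and 0.92) and Pla2g16 (-0.95 and 1.32) in the authors' deposited table. Rfx4 paired the fall at -3.5 upstream with a region over its start at 0.83 in the authors' deposited table. Other genes with both directions included Nfkb1, a subunit of NF-kappaB (0.78 and -1.42), Rasip1, an endothelial Ras interactor (1.26 and -1.39), and Hgsnat, a lysosomal enzyme gene (1.78 and -0.95), in the authors' deposited table.

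The densest stretch of 1 Mb lay on chromosome 10 from 80604202 to 81603800, with 17 regions among 59 protein-coding genes, 8 higher and 9 lower. It holds Diras1, Csnk1g2, a casein kinase gene (1.71), Map2k2, a MAP kinase kinase gene (-1.39), and the corepressor gene Tle2 (1.09), with values from the authors' deposited table. Next came chromosome 7 from 44437902 to 45373100, with 11 higher and 4 lower regions, which include Spib, an Ets factor gene of B cells and dendritic cells, at 1.42 in the authors' deposited table. On chromosome 17 from 34235302 to 35168700, in the major histocompatibility complex, 6 regions were higher and 6 lower. There H2-Aa stood at 1.87, a region shared by H2-Ab1 and H2-Eb1 at 0.69 and H2-Ob at -1.59 in the authors' deposited table, all genes of class II antigen presentation. The other stretches were on chromosome 7 from 126466502 to 127388200 with 12 regions and on chromosome 10 from 79587402 to 80349800 with 11. These are gene-dense stretches, and gene density was not taken out of the counts.

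Regions of the other comparisons were laid beside those of Vav KO against Tie2 WT. Tie2 KO against Tie2 WT shares the control samples and Tie2 KO against Vav KO shares the knockout samples, so agreement between the values is no independent support. Of the 1313 higher regions 656, and of the 630 lower regions 341 (54.1%), overlapped no region of either other comparison by 1 bp or more. Among higher regions also listed for Tie2 KO against Tie2 WT, Rnf165 had 2.63 here and 1.84 there on the log2 scale, Dlx5 2.49 and 1.11, Foxn4 2.23 and 1.95 and Stmn2, a neuronal stathmin gene, 2.03 and 1.82 in the authors' deposited table. Nphs1os had 2.42 and 1.77, Ambp 2.3 and 1.74, Rapgef3 2.05 and 1.69 and Ptpn21 2.04 and 2.07 in the authors' deposited table. Among lower regions Ptprcap had -3.49 and -1.39, Eef1g -3.05 and -2.56, Zfp568 -2.92 and -1.66 and Yy1, a zinc finger factor that can recruit or repress, -2.88 and -1.88 in the authors' deposited table. Similarly placed were 4921524J17Rik at -2.66 and -1.72, Zfp62 at -2.38 and -1.66, Zscan18 at -2.24 and -0.67 and Mir190b at -2.22 and -1.34 in the authors' deposited table. These 16 regions were chosen for large values in Vav KO against Tie2 WT. Over all overlapping pairs that were higher in both comparisons, the medians were 1.035 here and 1.025 in Tie2 KO.

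**Figure D5:**
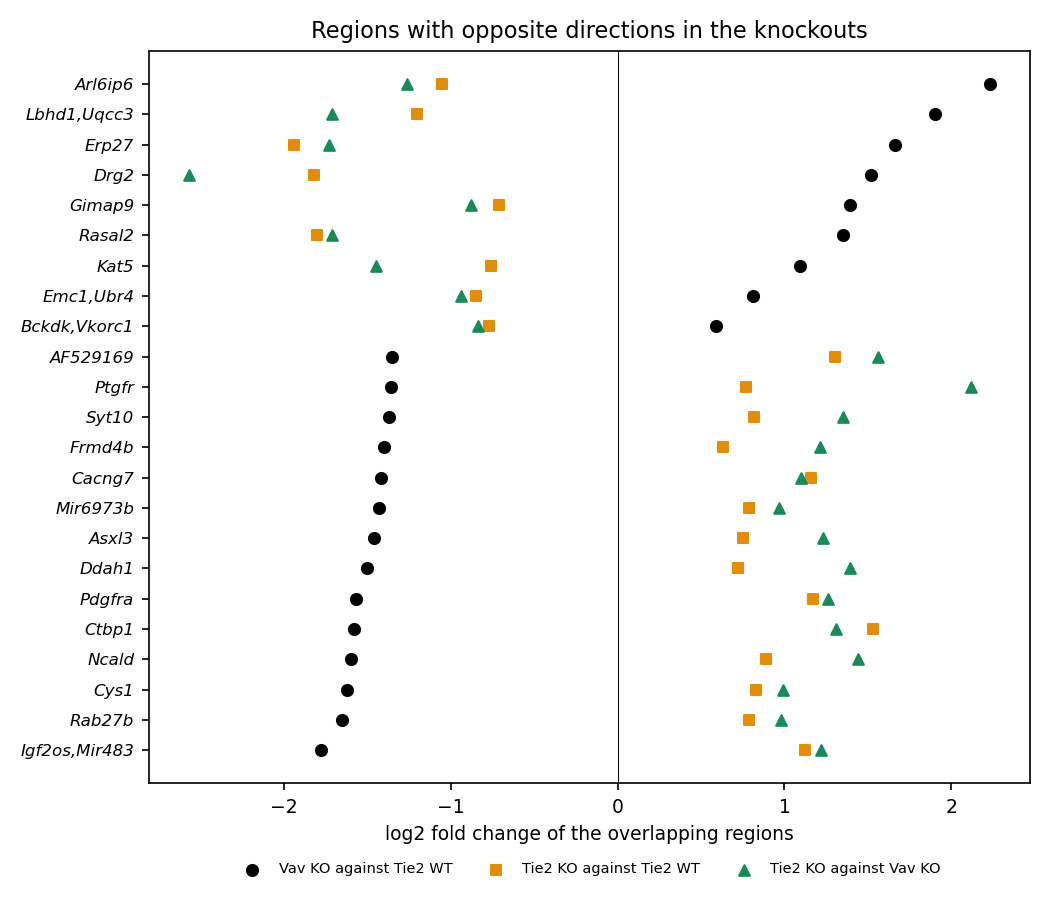
For regions called in opposite directions in the knockouts against Tie2 WT and also called between the knockouts, 9 of the 10 that were higher in Vav KO and the 14 of 34 lower ones with the largest change, the x axis gives the log2 fold change in each of 3 comparisons of the authors' deposited table. Black circles lie on the other side of 0 from the orange squares and green triangles in every row, which is how the regions were chosen.

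Some regions differed between the knockouts in direction. Of the regions that overlapped one of Tie2 KO against Tie2 WT, 325 higher and 122 lower, 12 higher and 38 lower ones overlapped a region of the opposite direction, and 10 and 34 of these were also called between the knockouts. Overlaps in the same direction numbered 313 higher and 84 lower regions. Of the regions listed for Tie2 KO against Tie2 WT 82.7% are higher, so lower regions here have more opposite ones to meet. Arl6ip6 stood at 2.23 in Vav KO and at -1.05 in Tie2 KO, each against Tie2 WT, and Erp27, a chaperone gene of the endoplasmic reticulum, at 1.66 and -1.94, in the authors' deposited table. On the lower side Pdgfra, a mesenchymal growth factor receptor, stood at -1.57 and 1.17, Fgf9 at -1.11 and 0.83, Sfrp2 at -1.1 and 0.89 and Ptgfr, a prostaglandin receptor, at -1.36 and 0.77 in the authors' deposited table. Rab27b stood at -1.65 and 0.79 and the polycomb-associated gene Asxl3 at -1.46 and 0.75 in the authors' deposited table. Of the 34 lower regions 17 covered a gene start, against 16.3% of all lower regions here. They were chosen by overlap with higher regions of Tie2 KO against Tie2 WT, of which 55.6% cover a gene start. The direct comparison of the knockouts was called on overlapping regions, and no region had the same boundaries in all 3 comparisons. It thus does not test the difference between the values printed here. Its adjusted p was 8.71e-07 for the region at Pdgfra, 1.81e-06 at Sfrp2 and 4.53e-06 at Erp27 in the authors' deposited table.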

How the data were processed

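ATAC-seq libraries of 500 sorted cells were amplified with 14 PCR cycles, per the labels' protocols. The submitters' processing notes list, without saying what each did, the build mm10 and the tools HOMER 4.10, MACS2 2.1.2, SAMtools 1.3.1, Bowtie2, Picard and FastQC. The treatment of duplicates, any shift of reads to the Tn5 cut, the scaling between libraries and the differential test were not given in the sources used here. Each deposited region has, per the file headers, the authors' log2 fold change, their adjusted p-value, a width and a distance to a gene start in bp. The edges lie on a grid of 100 bp, the largest adjusted p found in the files is 0.0479 and region numbers run up to 9859, so the lists are part of a longer one.

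Of 2055 lines, 2052 matched a RefSeq gene of GRCm38.p6, and gene starts lay within 1 kb of each other for 1755 of 1965 genes compared. Regions were counted once, genes near them by direction, and overlaps from 1 bp. Region properties were compared with 6 two-sided Fisher's exact tests (scipy 1.17.1) with Benjamini-Hochberg adjustment, checked on simulated lists. Intervals are exact 95% binomial ones and cover counting error only. Motifs were searched on both strands of promoters of 300 bases. The named genes follow a rule: Ezh2, Tek and Vav1, the 12 largest fold changes and 8 smallest adjusted p-values in each direction, genes with 3 or more regions, up to 4 members of a list or family in each direction, regions nearest the limits, and up to 8 regions in each direction shared with Tie2 KO. Other genes, beyond 4 in a list or family included, were picked with their values in view. The members, 12 gene lists and 41 families were chosen with earlier results of these data known, so their counts are descriptions. Some genes that are counted are not reported here by name, nor plotted by name.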

Additional observations from a re-analysis of the deposited data

Results flagged for a closer look

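The regions below stand out because the knockouts differ in direction against the same Tie2 WT samples. An overlapping region was also called by the authors between the knockouts. There are 44 such regions. Among those with the largest rise in Vav KO, 3 given in the authors' deposited table were at Arl6ip6 (2.23), Lbhd1 and Uqcc3, which share a region (1.9), and Erp27 (1.66). Those with the largest fall in the authors' deposited table were at Igf2os and Mir483, which share a region (-1.78), Rab27b (-1.65), Cys1 (-1.62) and Ncald (-1.6).

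The share of regions with an absolute log2 fold change of 2 or more, 12.9%, also differed from that of Tie2 KO against Tie2 WT, by Fisher's exact test over regions. The caveats given above on selection, sample number and regions as units hold here too.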

How the results depend on the processing

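The lists hold no values per sample, so no library could be left out. No paired analysis was possible because the lists give no values per sample and the groups share no replicate numbers. Alternatives for the 6 tests were chosen after seeing the data. With an adjusted p under 0.01, autosomes only, merged neighbours or regions paired with 1 gene, no count, share or median computed left its margin, and no test run changed its side of the threshold. Merging was not run for gene counts or tests, and a limit to 1 class gives no value for the test of that same property. Among regions upstream of gene starts the difference for chromosome X passed Fisher's exact test, at -1.45 points (adjusted p = 0.0392). No other test run there changed its side. With an absolute log2 fold change of 1 or more, 9.33% of higher and 11.2% of lower regions covered a gene start, the medians were 1.56 and -1.45, and the difference in gene starts turned to -1.83 points (adjusted p = 0.447 by Fisher's exact test). That setting removes small changes, and regions over a gene start had the medians smallest in size, 0.93 and -1.01 in the authors' deposited table. Among regions of the smallest width 563 were higher and 319 lower (63.8% higher), near 513 and 304 protein-coding genes, and 14.2% of higher ones covered a gene start. There the differences in gene starts and in regions with 2 or more genes turned to -1.15 and -0.64 points (adjusted p = 0.937 for both by Fisher's exact test), and that of chromosome X, at -2.29 points, passed (adjusted p = 0.0337 by Fisher's exact test). Its range over the alternatives was 0.0337 to 0.129. With an overlap of at least 0.5 of both regions there were 284 regions that overlap one of Tie2 KO against Tie2 WT, of 447.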

Other observations

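The 3 comparisons did not use the same region boundaries. Only 33 regions had the same coordinates in Vav KO against Tie2 WT and Tie2 KO against Tie2 WT, 95 in Vav KO against Tie2 WT and Tie2 KO against Vav KO, and 0 in all 3. In the 44 regions of opposite direction, the log2 fold change between the knockouts was smaller in size than the difference of the values against Tie2 WT in 43, by more than 0.5 in 34. The medians were 1.235 and 2.115. For Arl6ip6 the direct value was -1.26 and the difference -3.28, from values of the authors' deposited table. The 44 regions were chosen because both values against Tie2 WT passed the limits in opposite directions, which favours a large difference between them. The direct value comes from an overlapping region whose boundaries need not be the same. Its smaller size is therefore no test of these regions.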
